A study of Mus musculus with 8 samples.

Results

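The Hox genes were examined on whole-genome arrays of mouse fetal gonads and of the RNA recovered from those gonads with an antibody against DAZL, a germ cell RNA-binding protein. A gene was included when a probe of the array, other than a control spot, carried its symbol in the scanner files as Hox, a cluster letter from a to d and a number. This gave 50 probes for 38 Hox genes out of 27557 gene names on the array. All 38 symbols were current in the RefSeq gene table. The genes comprised 11 of the HoxA cluster, 10 of HoxB, 8 of HoxC and 9 of HoxD.

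Input RNA and immunoprecipitated RNA (IP) were each measured for XX and for XY gonads, on 2 arrays per group and 8 arrays in all, and every group came from E14.5 embryos of the MCH strain background. No mutation or transgene was named for any group. Each lysate was made from 50 gonads, and 5% of it served as input. The RNA labelled with Cy3 amounted to 50 ng for an input and 1 ng for an IP. Input RNA was whole-gonad RNA, so fewer cells of a type and less RNA per cell cannot be told apart. Replicate arrays were separate samples per the labels, but no source stated that they came from separate lots of gonads, and p-values then measure only the spread between these samples. Background binding of RNA to the beads was not analysed here, since the arrays used held no control IP.

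Hox genes encode homeodomain transcription factors that give cells a position along the body axes. They lie in clusters in which the order along the chromosome follows the order of expression from head to tail, and genes that hold the same place in different clusters are called paralogues and carry the same number. HOX proteins bind DNA together with partner homeodomain proteins of the PBX, MEIS and PREP families. In the urogenital tract the paralogues with high numbers pattern the ducts that form beside the gonad, and Hoxa10, Hoxa11 and Hoxa13 are known for their roles in the uterus and vagina.

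Values are given as log2 of the background-subtracted signal minus the 75th percentile of the array, so 0 is the 75th percentile of all probes on that array. A probe was called above background where the scanner software marked it as well above background. The inputs had 16713 to 20391 such probes per array, or 40.7 to 49.6% of all, and the IPs 6068 to 9468, or 14.8 to 23.0%. Of the 50 Hox probes, 26.0 to 38.0% were above background on an input array and 2.0 to 6.0% on an IP array. No Hox probe was saturated.

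Of the 38 Hox genes, 18 had a probe above background on at least 1 of the 4 input arrays and 20 on none. A gene was tested when both arrays of some group had a probe of it above background, which held for 14 genes (16 probes). These 14 were Hoxa3, Hoxa7, Hoxb2, Hoxb3, Hoxb6, Hoxb7, Hoxb9, Hoxc4, Hoxc6, Hoxc9, Hoxd4, Hoxd8, Hoxd9 and Hoxd10. The XX input had 13 genes above background on both arrays, the XY input also had 13, and 12 were shared. Hoxb3 was above background on both arrays in XX input but not in XY input, and Hoxb9 in XY input but not in XX input.

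**Figure D1:**
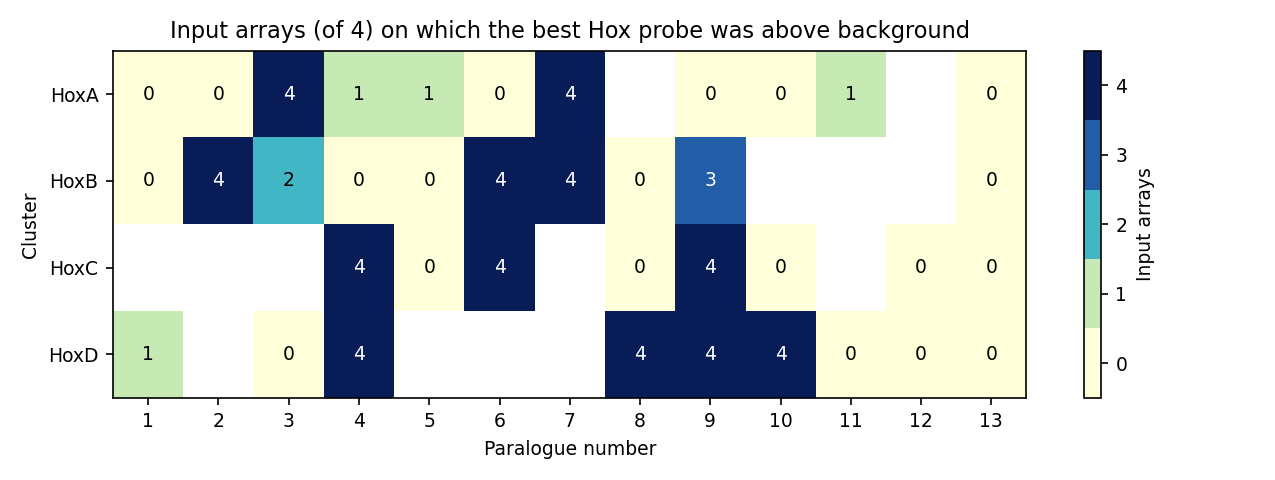
Each cell is a Hox gene, placed by cluster (rows) and paralogue number (columns), and its number and colour give how many of the 4 input arrays had the gene's best probe above background. White cells have no gene on the array by the rule used, and the genes seen on all 4 arrays lie between paralogues 2 and 10, with none from 11 to 13.

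In HoxA, 2 of 11 genes were tested, against 5 of 10 in HoxB, 3 of 8 in HoxC and 4 of 9 in HoxD. By paralogue number, 5 of 12 genes of groups 1 to 4 were tested, 5 of 11 of groups 5 to 8 and 4 of 15 of groups 9 to 13. Both genes of group 7 were tested and 3 of the 4 genes of group 9. No gene of groups 1, 5, 11, 12 or 13 was tested, and all 4 genes of group 13 were below background on all input arrays.

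Of the genes that were not tested, Hoxa4, Hoxa5 and Hoxd1 were above background on XX input replicate 1 alone, and Hoxa11, a regulator of uterus development, on 1 XY input array. XX input replicate 1 was also the array with the most probes above background. A low signal of a probe did not show that a gene was silent. Hoxa3, Hoxb2, Hoxb3 and Hoxb6 each had another probe that was above background on at most 1 input array, and both probes of Gata4, a factor known to be expressed in gonadal somatic cells, were below background on all 4 input arrays.

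The comparison of the inputs asked which Hox transcripts differed between XX and XY gonads. Hoxb9 and Hoxd9, both of paralogue group 9 and known for their part in thoracic and limb patterning, were lower in the XX input by 1 of 2 tested probes each. Both called probes entered the test only through the XY input, the group where they were high, so a difference towards XY was favoured by the filter. The 5 probes of the HoxD genes Hoxd4, Hoxd8, Hoxd9 and Hoxd10 all had lower means in XX than in XY, but only 1 of the 5 passed the test. No Hox probe passed in the other direction. All XX arrays lay on 1 slide and all XY arrays on another, and these differences of sex and of slide cannot be told apart.

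Differences were tested with limma on all 8 arrays, with Benjamini-Hochberg adjustment over the 18265 tested probes. Of the 16 Hox probes, 0 were higher and 2 were lower in the XX input at an adjusted p under 0.05. Over all tested probes 5.87% were higher and 6.1% were lower. At an unadjusted p under 0.05, 0 Hox probes were higher and 5 of 16 (31.2%) were lower, namely 1 of Hoxb9, both of Hoxd9 and those of Hoxd8 and Hoxd10, beside 12.1% higher and 11.7% lower of all tested probes. The median difference was -0.50 over the Hox probes and -0.003 over all probes, with 12 Hox probes below 0 and 4 above. Of the 16 Hox probes, 3 entered only through the XY input (both Hoxb9 probes and 1 of Hoxd9) and 1 only through the XX input (Hoxb3). The other 12 were above background in both inputs, and their median was -0.34. The arrays of XX and XY did not overlap for 11 of 16 Hox probes (68.8%), and for 76.0% of all tested probes.

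The HoxD genes are described from the 5′ end of the cluster, where the highest paralogue numbers lie. Hoxd10 takes part in the patterning of the hindlimb and its motor neurons. Its probe (chromosome 2, 74495062 to 74495121, plus strand, mm8 per the file headers) read -1.47 and -1.20 on the XX inputs, and -0.14 and -0.23 on the XY inputs. The XX arrays were both lower, with a difference of -1.15 (SE 0.40, n = 2 per group) and a limma adjusted p of 0.0922, which did not pass.

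Hoxd9 lies next to it and was read by 2 probes. The first (74500115 to 74500174) read -3.29 and -3.56 in XX input and -1.94 and -1.77 in XY input. It was above background on only 1 of the XX arrays and on both XY arrays, and the groups did not overlap. The difference was -1.57 (SE 0.41, limma adjusted p = 0.0257).

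The second Hoxd9 probe (74500458 to 74500517), above background on all 4 inputs, read 0.23 and -0.35 in XX input and 1.66 and 1.17 in XY input. Its difference of -1.47 was of similar size (SE 0.45), but its limma adjusted p was 0.0558. The call of the first probe did not hold without any 1 of the 4 input arrays, with adjusted p of 0.137 without XX input replicate 1, 0.259 without XX input replicate 2, 0.173 without XY input replicate 1 and 0.246 without XY input replicate 2. The second probe passed without either XY IP array (adjusted p = 0.0200 for each), which entered only through the shared spread. With normexp background correction the differences of the Hoxd9 probes were -0.84 and -0.57, and neither passed (adjusted p = 0.161 and 0.172). With outlying local backgrounds replaced as well, they were -0.43 (adjusted p = 0.211) and -1.07 (0.0220), so the second probe passed and the first did not.

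Hoxd8 has overlapping roles with its neighbours in axial and muscle patterning. It read -0.69 and -0.91 in XX input and 0.16 and 0.07 in XY input (74507803 to 74507862), again with both XX arrays below both XY arrays. The difference of -0.91 did not pass (SE 0.41, limma adjusted p = 0.194). Hoxd4, a patterning gene of the neck vertebrae, read -0.27 and 0.41 in XX input and 0.43 and 0.77 in XY input (74529648 to 74529707). Its arrays came close to each other, and the difference of -0.53 did not pass (SE 0.44, limma adjusted p = 0.556).

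In the 10 alternatives that could move the input values (background correction, scaling, the authors' values and leaving out an input array), the 50 values of the HoxD probes lay between -1.77 and -0.19. Most of these could hardly turn a direction. Scaling to the 50th percentile, scaling by probes above background on all arrays and the authors' values moved the first Hoxd9 probe only from -1.57 to -1.55, -1.59 and -1.57. Leaving out an array used the remaining arrays again. Over all alternatives the number of HoxD probes that passed ranged from none to all but Hoxd4. Hoxd1, Hoxd3, Hoxd11, Hoxd12 and Hoxd13, at both ends of the cluster, were not tested, so the differences describe its middle stretch only.

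Promoter letters are shown for Hoxd8 and Hoxd10, whose XX inputs lay below their XY inputs. The sequences are the 30 bases before the gene start in RefSeq on GRCm38.p6, plus strand, 5′ to 3′, with CG dinucleotides in capitals. The windows are chr2:74704585-74704614 for Hoxd8 and chr2:74691861-74691890 for Hoxd10.
Hoxd8: taagaaatgcaaaaagaaaaaggaaaaaaa
Hoxd10: tctcattggcttggttgtcatgtggtCGgc

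The 250 bases before the start held 6 CG in Hoxd8 and 20 in Hoxd10, against a median of 6 over 32851 RefSeq promoter windows of that length and 12.5 over the 24 windows found for 22 of the 38 Hox genes. A search of both strands for TGACAG, a core bound by MEIS proteins, and for TGATNNAT, a composite bound by HOX and PBX proteins, found neither in the windows of Hoxd8 or Hoxd10. TGACAG was in 15.9% of all windows and in 2 of the 24 Hox windows. TGATNNAT was in 7.68% of all windows and in 4 of the 24.

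**Figure D2:**
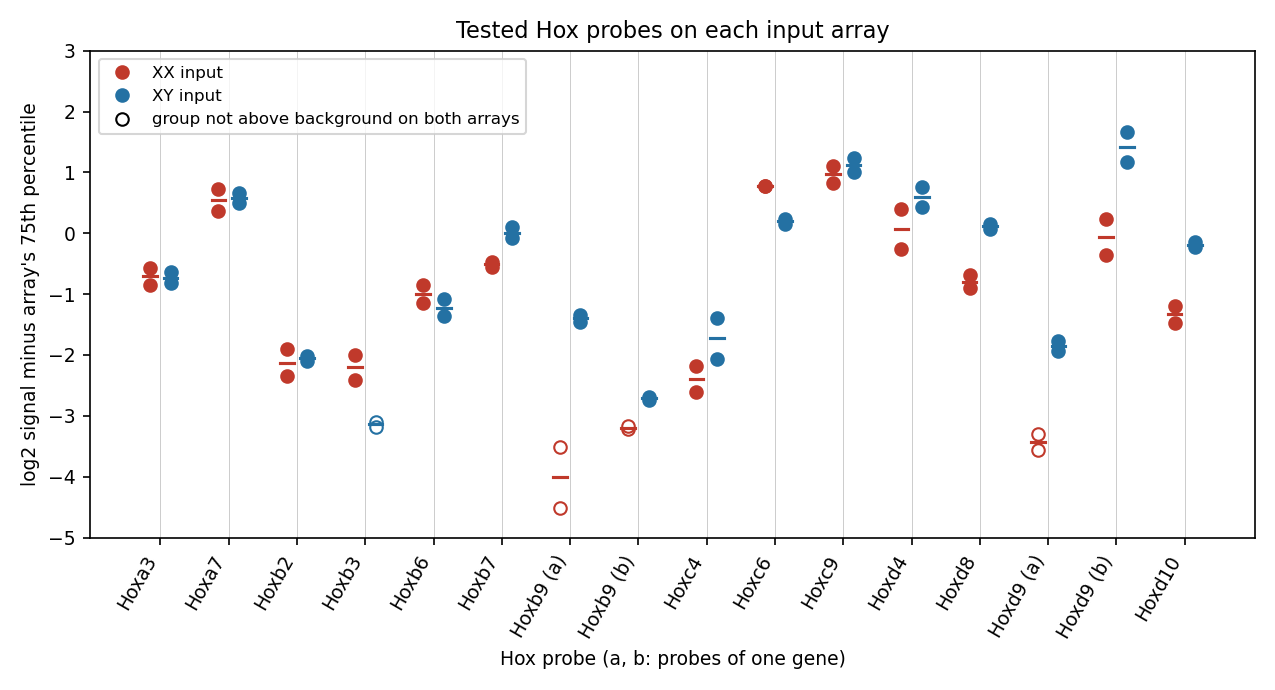
Points are the log2 signal minus the 75th percentile on each input array for the 16 tested Hox probes, XX input in red and XY input in blue, with a bar at the mean of 2 arrays; open points mark a group that was not above background on both arrays. The XX points of Hoxb9 probe a and of Hoxd8, Hoxd9 and Hoxd10 lie below the XY points, and those of Hoxa3, Hoxa7 and Hoxb2 overlap them.

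In HoxB, Hoxb9 was read by 2 probes that differed in size. The probe at chromosome 11, 96092524 to 96092583, read -3.51 and -4.51 in XX input, where it was not above background on either array, and -1.45 and -1.34 in XY input, where it was above background on both. The limma difference was -2.61 (SE 0.65, adjusted p = 0.0196). Against the lowest signal above background on the XX arrays, this probe was at least 2.88-fold higher in the XY input. That bound holds for this probe and the main background subtraction only. The other Hoxb9 probe (96091841 to 96091900) read -3.22 and -3.17 in XX input and -2.74 and -2.68 in XY input, a difference of -0.49 that did not pass (SE 0.62, adjusted p = 0.736). The call did not hold without XX input replicate 2 (adjusted p = 0.135) or without XY input replicate 2 (0.0554). It was also lost with normexp (-1.01, adjusted p = 0.110), with outlying backgrounds replaced (-0.66, 0.120), with quantile normalization (0.492), with the other scalings (0.0544 and 0.183) and without a filter on dim probes (0.0661).

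Hoxb3, which acts in hindbrain and thyroid development, showed the largest difference towards XX among the tested Hox probes. It read -2.41 and -1.99 in XX input and -3.10 and -3.19 in XY input, where it was not above background (96163778 to 96163837). The difference was 0.94 (SE 0.46, adjusted p = 0.242), at least 1.62-fold by the bound, and did not pass. Hoxb7, a gene active in the nephric duct, read -0.47 and -0.55 in XX input and -0.08 and 0.10 in XY input, a difference of -0.52 that did not pass (adjusted p = 0.523). Hoxb2 and Hoxb6 differed by -0.07 and 0.22, with overlapping arrays.

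The HoxC and HoxA probes did not pass either. Hoxc6, known from limb and mammary development, read 0.77 and 0.78 in XX input and 0.16 and 0.24 in XY input, with a difference of 0.58 (SE 0.40, adjusted p = 0.456). Hoxc9, which sets thoracic identity, differed by -0.16, Hoxc4 by -0.66, Hoxa3, a gene of pharyngeal arch development, by 0.02 and Hoxa7, an axial patterning gene, by -0.03. Differences between paralogues of one group were not tested. Within group 9, Hoxc9 differed by -0.16 while the Hoxd9 probes differed by -1.57 and -1.47, and within group 4 the differences of Hoxc4 and Hoxd4 were -0.66 and -0.53.

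**Figure D3:**
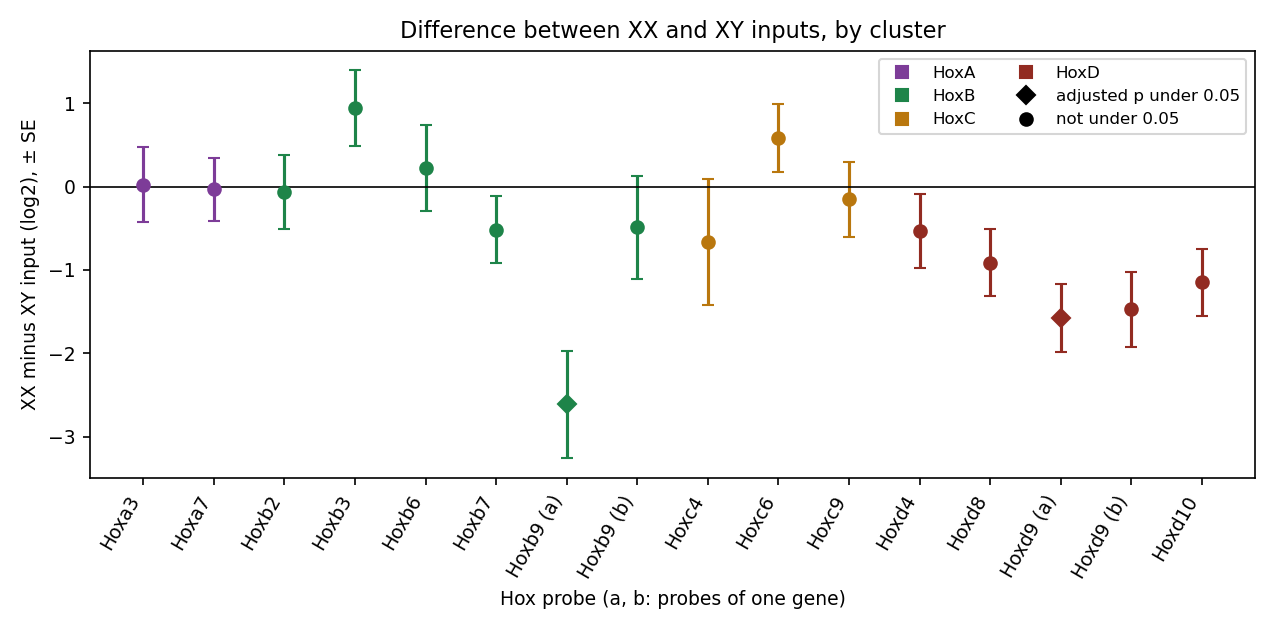
Points are the XX minus XY input difference on the log2 scale for each tested Hox probe with its limma standard error (n = 2 arrays per group), coloured by cluster, and diamonds mark an adjusted p under 0.05. All 5 HoxD points lie below 0, with a median of -1.15, and the diamonds are Hoxb9 probe a and Hoxd9 probe a.

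By cluster the median differences were -0.01 for the 2 HoxA probes, -0.28 for the 6 HoxB probes, -0.16 for the 3 HoxC probes and -1.15 for the 5 HoxD probes. By position they were -0.07 for groups 1 to 4, -0.03 for groups 5 to 8 and -1.31 for the 6 probes of groups 9 to 13. Of those 6, 3 had entered the test only through the XY input, which favours a value below 0, and the other 3 (Hoxc9, Hoxd9 and Hoxd10) had a median of -1.15. Without the probe that entered in that way, the HoxD median was -1.03 over 4 probes. These parts overlap, since 3 of the 6 probes of groups 9 to 13 are HoxD probes, and their difference from the other Hox probes was not tested. Without a filter on dim probes 1 of 50 Hox probes was higher in XX input, beside 1.34% of all 41101 probes. This was the probe of Hoxa5, a gene of lung and axial development (limma adjusted p = 0.0429). It was above background on 1 XX input array and on no XY input array, so no fold is given.

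Partners of HOX proteins were on the array with all 9 genes of the list, of which 7 were tested. Pbx3, a homeodomain partner, was higher in XX input, at 3.16 and 3.08 against 0.67 and 0.94, a difference of 2.31 (SE 0.39, limma adjusted p = 0.00209; 0.0548 with scaling to the 50th percentile). It was the only call, with 0 of 7 lower, and the median of the 7 was -0.47. Pknox2 had the largest difference in the other direction, -1.03, which did not pass (adjusted p = 0.187), and Pbx2, Pbx4, Meis1, Meis2 and Pknox1 lay between -0.56 and 0.30. Of 9 regulators of Hox expression, 3 were tested, none passed, and their median was 0.17. These were Kmt2a and Bmi1, which encode chromatin proteins of the trithorax and Polycomb groups, and the retinoic acid receptor gene Rarb. The caudal genes Cdx1, Cdx2 and Cdx4 were above background on at most 1 input array each. Evx1 and Evx2, at the ends of HoxA and HoxD, were not tested.

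Of 15 transcription factors of the urogenital ridge, 10 were tested. Of these, 1 was higher and 2 were lower in XX input. Eya1, which acts in early kidney development, was lower in XX input, with a log2 difference of -3.09 (limma adjusted p = 0.000413). The size was smaller with normexp, -1.48 (adjusted p = 0.0356), and with outlying backgrounds replaced, -1.82 (0.00149), and it passed under both. Emx2, needed for the urogenital ridge, was at background on both XY inputs and at least 1.95-fold higher in XX input (log2 difference as measured 1.94, adjusted p = 0.0289). It entered the test only through the XX input, so a difference towards XX was favoured by the filter. This call did not hold without any 1 of the 4 input arrays (adjusted p from 0.0796 to 0.193), and the measured difference was -0.45 with normexp background correction. The other 7, among them Wt1 and Lhx9, did not pass, and the median of the list was 0.10.

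Markers of somatic cell types moved with the sex of the inputs, and their part in the Hox differences was not tested. Of 6 Sertoli cell markers, all tested, 5 were lower in XX input, and all 4 tested Leydig markers were lower. Of 6 markers of XX supporting cells, 3 were tested and 2 were higher in XX input, Rspo1 by 2.77 and Fst by at least 59.0-fold, since its XY inputs were at background. Among these markers, the probes of Amh, Dhh, Cyp11a1 and Star entered the test only through the XY input and that of Fst only through the XX input. The filter favoured those differences. No tested marker of endothelium (2) or blood (3) passed. All 5 markers of interstitial mesenchyme were tested, and their summed linear signal, in units of the array's 75th percentile, was 22.0 and 29.9 in XX input and 49.7 and 55.0 in XY input. Of 7 markers of the mesonephros and its ducts, a tissue that can stay attached to a dissected gonad, 3 were tested. Cdh16 and Emx2 were higher in XX input, by at least 2.36-fold and 1.95-fold, but both entered the test only through that group and were at background in the XY input. The measured difference of Emx2 was -0.45 with normexp and 0.13 with outlying backgrounds replaced, so its direction depended on the background correction. Lhx1 differed by -0.46 and did not pass. The summed signal of the list, values at background included, was 0.65 and 0.84 in XX input and 0.33 and 0.40 in XY input, and the defining duct genes Pax2, Pax8, Wnt9b and Ret were below background on all input arrays. Of the 7 germ cell markers, all tested, Tex101 was higher in XX input (2.76) and 3 were lower, Dnd1 (-4.33), Dppa3 (-4.19) and Pou5f1 (-3.70). Pou5f1 entered the test only through the XY input. The median of the list was -0.84.

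The comparison of IP with input asked which Hox transcripts were recovered with DAZL, which is found in germ cells. Few Hox transcripts gave a signal there. Of the 16 tested probes, 1 was above background on both XX IP arrays (Hoxc4) and 1 on both XY IP arrays (Hoxa7), while 30.6% and 30.2% of all tested probes were. On at least 1 array, Hoxb6 was also seen in the XX IP, and Hoxb9 and Hoxc4 in the XY IP. None of the 5 HoxD probes was above background on any IP array.

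Calls in these comparisons needed a change of 4-fold or more and an adjusted p under 0.05; both limits are the study's, with an adjusted p here. In XX, 3 Hox probes were called higher in the IP and 2 lower, beside 14% and 9.91% of all probes. In XY, 2 were called higher and 1 lower, beside 10.2% and 7.68% of all probes. The median over the Hox probes was 0.17 for XX and -0.18 for XY, and the median over all probes was 0.09 and -0.03. The arrays of the IPs had a lowest level above background of 0.03 to 1.03, and the inputs one of -3.59 to -2.34. A probe at background on both sides can therefore read higher in an IP. When a call also required the higher side to be above background on both its arrays, a rule chosen after the data were seen, 1 higher call was left in XX (Hoxc4) and 0 in XY.

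Hoxc4, an axial patterning gene at the 3′ end of HoxC, was the 1 Hox transcript measured on both sides and called (chromosome 15, 102864144 to 102864186, plus strand). It read -2.61 and -2.18 in XX input and 3.91 and 0.80 in XX IP, with both IP arrays above both inputs and a wide spread between the IP arrays (SD 2.19). The difference was 4.75 (SE 0.76, limma adjusted p = 0.000497). It was 1.82 with normexp and 1.81 with outlying backgrounds replaced, both under the 4-fold limit, and 2.74 with scaling to the 50th percentile, where it was still called. In XY it read -1.39 and -2.07 in input and 0.72 and 0.78 in IP, where 1 of 2 arrays was above background.

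The XY difference of Hoxc4 was 2.48 (SE 0.76, adjusted p = 0.0216). It did not pass without XY input replicate 2 (adjusted p = 0.0756), XY IP replicate 1 (0.0768) or XY IP replicate 2 (0.0711). The value was 0.47 with normexp (adjusted p = 0.521), 0.88 with outlying backgrounds replaced (0.0942) and 0.61 with scaling to the 50th percentile (0.515), and the call was also lost with quantile normalization (0.116) and with scaling by probes above background on all arrays (0.185). The difference between the sexes was 2.27 and did not pass (SE 1.07, adjusted p = 0.322).

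Hoxa7, which patterns the thoracic region, was above background on both XY IP arrays and on all 4 inputs (chromosome 6, 52145210 to 52145269, minus strand). It read 0.50 and 0.66 in XY input and 1.91 and 1.88 in XY IP. The 2 IP arrays were close together and above both inputs. The difference of 1.31 (SE 0.38, limma adjusted p = 0.0170) was below the 4-fold limit, so it was not called. It was 0.007 with normexp, 0.075 with outlying backgrounds replaced and -0.55 with scaling to the 50th percentile, so no rise was shown under these.

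In XX, Hoxa7 read 0.37 and 0.72 in input and -0.55 and -0.40 in IP, where it was not above background. The IP minus input difference was -1.02 as measured, but 0.11 with the IP at the lowest signal above background, so no decrease in XX was shown. The difference between the sexes in IP minus input, XX minus XY, was -2.33 (SE 0.54, adjusted p = 0.0372). With the XX IP at the lowest signal above background the difference between the sexes was -1.21, and the XY IP was at least 2.36-fold above the XX IP. Hoxa7 was the 1 Hox probe of 16 called in this comparison, where 1.12% of all probes were called lower and 2.18% higher in XX. The call did not hold without XX input replicate 1 (adjusted p = 0.148), XX input replicate 2 (0.242), XX IP replicate 1 (0.0609), XY input replicate 1 (0.236) or XY input replicate 2 (0.182), nor with normexp, where the difference was -0.27.

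**Figure D4:**
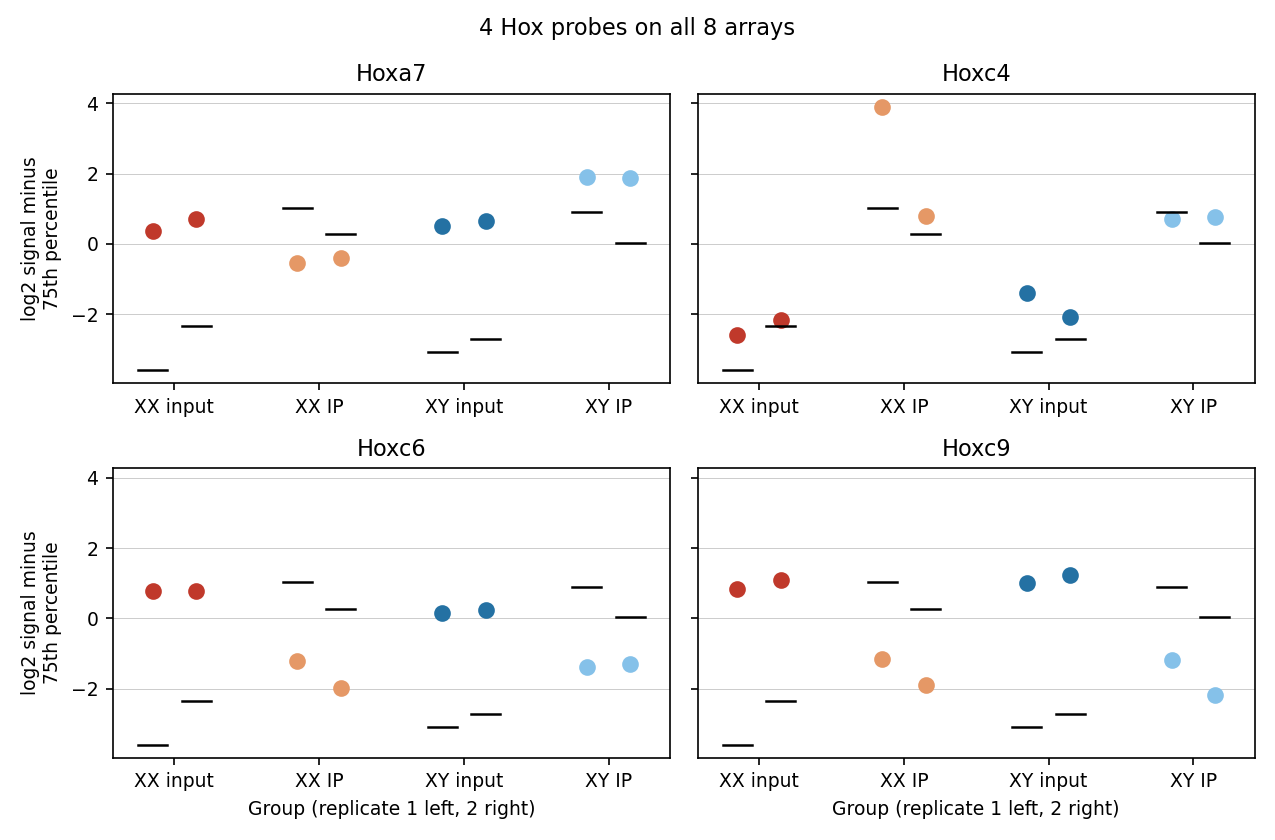
Points are the log2 signal minus the 75th percentile of Hoxa7, Hoxc4, Hoxc6 and Hoxc9 on each of the 8 arrays, and black bars give the lowest signal marked above background on that array. Hoxa7 lies above the bar on both XY IP arrays and Hoxc4 on both XX IP arrays, while Hoxc6 and Hoxc9 lie below the bar on all 4 IP arrays.

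Hoxc9 was lower in the IP of both sexes. It read 0.83 and 1.10 in XX input and -1.15 and -1.89 in XX IP, and 1.01 and 1.24 in XY input and -1.19 and -2.18 in XY IP (chromosome 15, 102812338 to 102812397). All 4 IP arrays were at background and below all inputs. The differences were -2.49 (SE 0.45, limma adjusted p = 0.00110) in XX and -2.81 (adjusted p = 0.000793) in XY. Against the lowest IP signal above background, the XX input was at least 1.24-fold higher and the XY input at least 1.57-fold higher, so a 4-fold depletion was not shown. With normexp the measured differences were -1.07 and -0.56, under the 4-fold limit.

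Hoxc6 behaved likewise in XX, at -1.20 and -1.98 in the IP, with a difference of -2.37 (SE 0.40, adjusted p = 0.000737) and a bound of at least 1.09-fold. Without XX IP replicate 2 its difference was -1.98 and with normexp -0.78, both under the 4-fold limit. In XY its IP was also at background, and the difference was -1.54 as measured but 0.27 with the IP at the lowest signal above background, so no decrease was shown there. The Hoxd9 probe at 74500458 differed by -1.96 in XY (adjusted p = 0.00565), with a bound of at least 1.93-fold.

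The remaining calls had no signal above background on both arrays of the higher side. The Hoxb9 probe at 96092524 was called higher in XX IP (3.25), but it was at background on all 4 XX arrays, so no fold is given. The Hoxd9 probe at 74500115 was called higher in XX IP (2.06) with both IP arrays at background. It fell under the limit without XX input replicate 2 (1.92) or XX IP replicate 1 (1.72). The other Hoxb9 probe was called higher in XY IP (2.65, adjusted p = 0.00593) from arrays of -1.20 and 1.07, the second of which was above background, and without that array the difference was 1.51. The other Hox probes were not called in either sex.

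Of the partners and regulators of Hox genes, 4 of 7 tested partners and 2 of 3 tested regulators were above background on both XX IP arrays, and 2 of each on both XY IP arrays, beside the 30.6% and 30.2% of all tested probes. Pbx2 read 3.59 and 3.67 in XX input and 5.28 and 6.14 in XX IP, and 4.18 and 4.19 in XY input and 7.91 and 8.51 in XY IP. It was called higher in both, by 2.08 (SE 0.43, limma adjusted p = 0.00226) and 4.02 (adjusted p = 8.24e-05). Without XX IP replicate 2 the XX difference was 1.65, under the 4-fold limit, and it was -0.051 with normexp, -0.055 with outlying backgrounds replaced and 0.07 with scaling to the 50th percentile. The XY difference of Pbx2 was 1.89 and 1.79 with the first 2 of these, also under the limit.

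Pbx3 was called in the XX IP, at 5.86 and 6.40 against the inputs of 3.16 and 3.08, a difference of 3.01 (SE 0.39, adjusted p = 0.000185). With normexp, outlying backgrounds replaced and scaling to the 50th percentile it was 0.83, 0.83 and 1.01 and not called. In XY its IP arrays of 0.90 and 1.08 lay near the inputs of 0.67 and 0.94, a difference of 0.19. Its difference between the sexes was 2.83 (SE 0.56, adjusted p = 0.0217), and it did not pass without any 1 of the 4 input arrays (adjusted p of 0.104 and 0.0977 without XX input replicates 1 and 2, and 0.0865 and 0.123 without XY input replicates 1 and 2). Bmi1 was called higher in XX IP (3.33, adjusted p = 0.000116) and Kmt2a in XY IP (2.22, adjusted p = 0.00113). Neither call held with normexp (1.2 for Bmi1 and 0.21 for Kmt2a), with outlying backgrounds replaced (1.2 and 0.41) or with scaling to the 50th percentile (1.32 and 0.35).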

How the data were processed

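Each RNA was hybridized to a 1-colour Agilent mouse array. The deposited scanner files hold signal intensity per spot, from which, per the file headers, version 9.5.3.1 of Feature Extraction had subtracted background, with no normalization between arrays. The deposited value table holds log2 values that the authors scaled to the 75th percentile of each array, and was used as an alternative.

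Outlier spots were dropped, signals were floored at 1, spots of a probe were averaged, and log2 values were taken relative to the 75th percentile of each array. Of 41101 probes with a value on all arrays (73 were left out as outliers), 18265 passed the filter (above background on both arrays of 1 or more groups) and were tested. All 8 arrays entered a limma fit of group means (limma 3.58.1, R 4.3.3), with empirical Bayes moderation (residual degrees of freedom 4, prior 7.82), two-sided tests and Benjamini-Hochberg adjustment. The procedure was tested on simulated data. Precision is limited by the 2 arrays of each group.

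Where a group was at background, its level on each array was raised to the lowest signal above background where it lay under it, which gives an "at least" fold. Bounds compare means of log2 values.

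Named were each called Hox gene, all other tested Hox genes in short, and called genes of the other lists. Members and lists were chosen with earlier results of these data known. Hoxd4, Hoxd8 and Hoxd10 are given in full as neighbours of Hoxd9, and Hoxa5 was added after its value was seen. Positions are those of the files (mm8). Exons and untranslated regions are not given because no mm8 annotation was used here, and protein sequences are not printed. Replicate numbers were not treated as pairs: the deviations of replicates 1 and 2 correlated at 0.52 between the inputs and 0.538 between the IPs, but at 0.0307 (XX) and 0.138 (XY) between input and IP, over 4206 probes. Alternatives were other background corrections, scalings and filters, the authors' values, a fit to the compared arrays, a replicate block and leaving out each array. Some items of the lists are not reported here.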

Additional observations from a re-analysis of the deposited data

Results flagged for a closer look

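Hoxa7 and the HOX partner Pbx3 differed between the sexes in IP minus input by the test of that difference itself. For Hoxa7 the XX minus XY difference was -2.33 (limma adjusted p = 0.0372), from a measured -1.02 in XX, where the IP was at background on both arrays, and 1.31 in XY, and -1.21 with that IP at the lowest signal above background. It was -0.27 with normexp background correction and -0.34 with outlying local backgrounds replaced, and neither passed (adjusted p = 0.808 and 0.589). For Pbx3 it was 2.83 (adjusted p = 0.0217), from 3.01 in XX and 0.19 in XY. It was 1.12 and 1.24 with the same corrections (adjusted p = 0.763 and 0.254), and 2.68 with scaling to the 50th percentile (adjusted p = 0.262). Groups of 2 arrays were too small to look for single outlying arrays.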

How the results depend on the processing

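The limits are 2 arrays per group, low signal on the IP arrays, and a slide for each sex. The HoxD probes kept their direction in the inputs in the 10 alternatives that could move their values. Most of these could hardly turn it, since they shifted all probes nearly alike or left out 1 array. The authors' values changed no Hox count. Scaling to the 50th percentile moved the median of all probes to -1.92 (IP against input in XX) and -1.90 (XY), quantile normalization to -0.74 and -0.73, and scaling by probes above background on all arrays to -0.34 and -0.36, so IP directions depend on the scaling. Fitting only the input arrays called 4133 probes higher and 3930 lower of all 18265, against 1072 and 1114. The cause of the changes below was not tested, except that filters change which probes are tested.

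In the inputs (main values 0 higher, 2 lower, median -0.50), 0 Hox probes were lower with normexp, quantile normalization, scaling to the 50th percentile, scaling by probes above background on all arrays, no filter and a stricter filter. With outlying backgrounds replaced 2 were lower, but these were Hoxd8 and the other Hoxd9 probe (adjusted p = 0.0186 and 0.0220), and neither main call passed. The median was -0.20 with outlying backgrounds replaced, -0.36 with quantile normalization, 0.025 without the filter and -0.34 with the stricter filter. Without the filter 1 of 50 was higher, beside 1.34% of all probes, and on the input arrays alone 2 were higher and 7 lower. Leaving out 1 array gave 0 to 3 lower, 0 higher and medians of -0.50 to -0.32. For partners and regulators (1 higher, 0 lower), scaling to the 50th percentile gave 0 higher and the input arrays alone gave 2 higher and 2 lower. For urogenital ridge factors (1 higher, 2 lower), 0 were higher with normexp, the 50th percentile, no filter and the stricter filter, 2 with outlying backgrounds replaced and 5 on the input arrays alone, and 1 was lower with normexp and the 50th percentile. Leaving out 1 array gave 0 to 3 higher and 2 lower.

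In the XX IP (3 higher, 2 lower, median 0.17), there were 0 higher and 0 lower with normexp and with outlying backgrounds replaced. With quantile normalization there were 1 and 5 (median -1.25), beside 1479 and 3286 of all 18265 probes. With the 50th percentile there were 1 and 8 (median -1.84), beside 189 and 8643 of all probes. Scaling by probes above background on all arrays gave 1 higher (median -0.26). Without the filter 32 of 50 were higher (median 2.82, beside 56.8% and 2.54 over all probes). The stricter filter gave 1 higher and 0 lower, and its median of 4.75 is Hoxc4 alone. Leaving out 1 array gave 2 to 3 higher, 1 to 2 lower and medians of -0.09 to 0.30.

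In the XY IP (2 higher, 1 lower, median -0.18), there were 0 and 0 with normexp (median 0.029) and with outlying backgrounds replaced (median 0.14). With quantile normalization there were 0 and 5 (median -1.21), beside 1241 and 2478 of all 18265 probes. With the 50th percentile there were 0 and 9 (median -2.04), beside 219 and 8379 of all probes. Scaling by probes above background on all arrays gave 1 and 2 (median -0.51). Without the filter 36 of 50 were higher (median 2.79, beside 54.4% and 2.38 over all probes). The stricter filter gave 0 and 0, and its median of 1.31 is Hoxa7 alone. Leaving out 1 array gave 0 to 2 higher, 1 to 2 lower and medians of -0.49 to 0.13. Requiring the higher side above background on both arrays left 1 higher in XX and 0 in XY. Counting genes above background on at least 1 array in place of both gave 2 for XX IP and 3 for XY IP, against 1 each.

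For the difference between the sexes (0 higher, 1 lower, median 0.21), 0 were lower with normexp, outlying backgrounds replaced, the 50th percentile, scaling by probes above background on all arrays and no filter, the median was -0.43 with quantile normalization, and no Hox probe was left by the stricter filter. Leaving out 1 array gave 0 to 2 higher, 0 to 1 lower and medians of 0.03 to 0.30. With the replicate block 1 was higher, a Hoxb9 probe at background on all 4 XX arrays and both XY IP arrays, for which no fold is given, and no other Hox call changed, while over all probes the block moved the calls of this difference from 398 higher and 204 lower to 588 and 315. Single genes turned direction in 5 cases: Hoxd9 (74500115) in XX IP to -0.27 with quantile normalization, Hoxa7 in XY IP to -0.55 with the 50th percentile, Emx2 in the inputs to -0.45 with normexp, and Pbx2 in XX IP to -0.051 with normexp and -0.055 with outlying backgrounds replaced. Of the other single-gene values 375 stayed on their side of the threshold, 97 lost their call and 11 gained one.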
